A study of Mus musculus with 24 samples.

Results

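Secreted Wnt antagonists were followed in C2C12 cells, a mouse myoblast line, over 6 groups of 4 libraries. The members were 9 genes chosen by name: the secreted frizzled-related genes Sfrp1, Sfrp2, Sfrp4, Sfrp5 and Frzb, the Dickkopf genes Dkk1, Dkk2 and Dkk3, and Wif1. Of these, 6 were among the 14693 genes of the count table and were tested, namely Sfrp1, Sfrp2, Sfrp4, Dkk2, Dkk3 and Wif1. Sfrp5, Frzb and Dkk1 were not analysed here.

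Wild-type cells were differentiated by a change of 10% fetal bovine serum to 2% horse serum. During differentiation they received 100 µM linoleic acid (LA, a polyunsaturated fatty acid) carried on bovine serum albumin, 10 ng/mL of recombinant mouse ANGPTL4 (a secreted inhibitor of lipoprotein lipase), or vehicle. RNA was taken at day 2 or day 6, which gives LA, ANGPTL4 and vehicle groups at each day. The cells are 1 established line, and nothing in the labels says that the libraries of a group came from separate cultures, so p-values measure the spread between these libraries, which may be technical.

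Wnt proteins are secreted lipid-modified ligands that bind Frizzled receptors and the coreceptors LRP5 and LRP6, which stabilises beta-catenin and lets it act with TCF and LEF factors in the nucleus. Frizzled-related proteins and WIF1 are soluble and bind Wnt ligands outside the cell. Dickkopf proteins 1 and 2 instead bind LRP5 and LRP6, while DKK3 is a divergent family member whose part in Wnt signalling is less settled. In muscle, Wnt signals are known to act on satellite cells and on the differentiation of myoblasts.

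Promoter sequences were matched for 3 of the 6 tested genes in RefSeq (build GRCm38.p6), and each is shown over the 250 bases before the annotated start, 5′ to 3′ on the gene's strand. These 3 are shown because a promoter was matched for them, and none was matched for Sfrp1, Sfrp4 and Dkk3. Capitals mark matches on either strand to TATAAA (the TATA box), CTTTGA or CTTTGT (the core bound by TCF and LEF factors) and AGGTCA (a nuclear receptor half-site). The Sfrp2 window lies at chr3:83766071-83766320 on the plus strand, that of Dkk2 at chr3:132085042-132085291 on the plus strand, and that of Wif1 at chr10:121033754-121034003 on the plus strand.
Sfrp2: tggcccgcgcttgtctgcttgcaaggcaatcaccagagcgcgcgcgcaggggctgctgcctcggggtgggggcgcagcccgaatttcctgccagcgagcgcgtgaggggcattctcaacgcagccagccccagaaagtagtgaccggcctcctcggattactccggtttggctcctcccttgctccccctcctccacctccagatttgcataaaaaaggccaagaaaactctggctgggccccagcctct
Dkk2: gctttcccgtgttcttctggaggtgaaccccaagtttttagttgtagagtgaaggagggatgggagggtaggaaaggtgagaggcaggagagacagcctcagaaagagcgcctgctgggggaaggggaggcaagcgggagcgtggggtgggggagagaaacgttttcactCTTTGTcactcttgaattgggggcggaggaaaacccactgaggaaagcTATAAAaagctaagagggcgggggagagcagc
Wif1: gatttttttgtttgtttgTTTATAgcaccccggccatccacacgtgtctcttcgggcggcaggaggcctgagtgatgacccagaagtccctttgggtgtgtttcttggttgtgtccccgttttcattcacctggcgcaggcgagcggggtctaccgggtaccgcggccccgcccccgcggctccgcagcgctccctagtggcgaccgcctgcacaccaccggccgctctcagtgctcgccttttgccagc

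The Dkk2 window held 1 CTTTGT match that began 80 bases before the start and 1 TATAAA match that began 32 bases before it. In the Wif1 window there was 1 TATAAA match, on the minus strand and 232 bases before the start. The Sfrp2 window held 0 matches to the 4 motifs, which says only that these letters are not in it. Among 32851 promoter windows of this length, 16.5% held CTTTGT, 13.8% CTTTGA, 14% AGGTCA and 12.4% TATAAA. No 2 matches overlapped, and the GC content was 63.6% for Sfrp2, 55.6% for Dkk2 and 62.8% for Wif1.

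Library totals ranged over 9547787 to 25049912 counts with LA, 13194847 to 20580188 with ANGPTL4 and 9850494 to 14529573 with vehicle at day 2. At day 6 they ranged over 8192308 to 15230974 counts with LA, 6100684 to 9067864 with ANGPTL4 and 9847952 to 12606450 with vehicle. Values are given in CPM, the library-normalised count on totals scaled by the TMM method. The first principal component of log2 CPM held 47.5% of the variance and separated the days. On the second, with 9.46%, day 2 LA replicate 3 stood apart from its group (-19.3, against 1.32 to 4.07 in the other LA libraries), as did day 6 ANGPTL4 replicate 1 (18.7, against -9.37 to -6.65 in the other ANGPTL4 libraries). The day 2 LA library lay within the range of the day 2 ANGPTL4 libraries on that component (-19.7 to -4.61). Within that range, ANGPTL4 replicate 4 (-4.61) lay away from the other ANGPTL4 libraries of that day (-19.7 to -15.2), toward the other LA libraries. Calls that turn on day 2 LA replicate 3 or day 6 ANGPTL4 replicate 1 are given with and without them. So are the values of day 2 LA and day 6 ANGPTL4 against vehicle that they moved by over 1.5 times. Muscle markers were present in every group, with 8 myotube genes summing to 16130 CPM or more in each library.

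**Figure D1:**
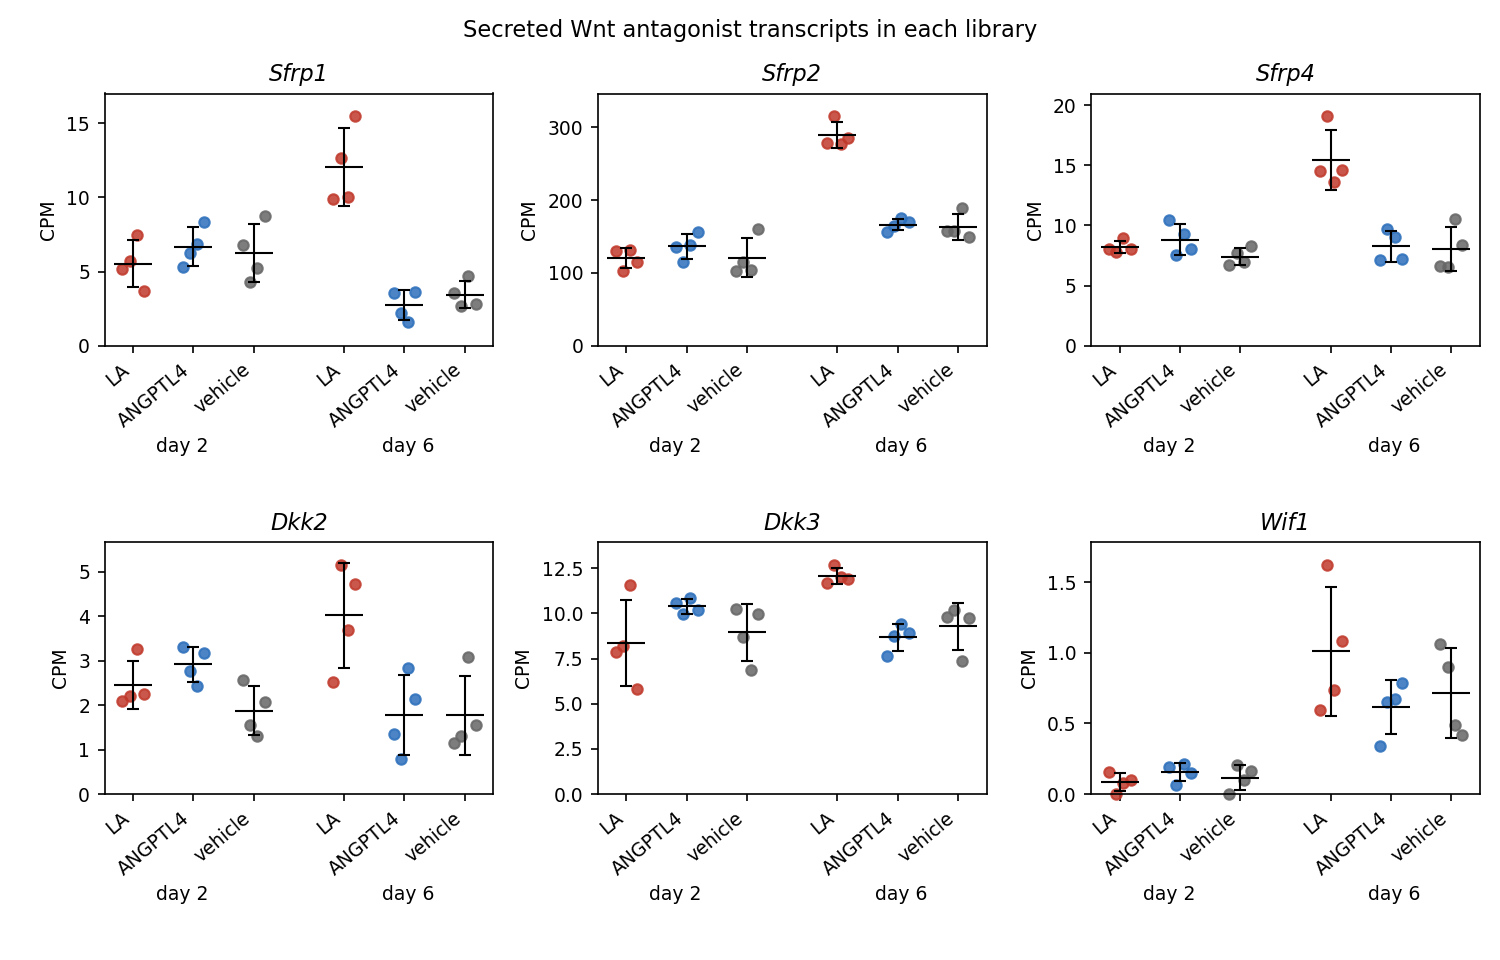
CPM of the 6 tested antagonists (vertical axis, from 0) in each library of the 6 groups (horizontal axis), with the mean and SD of 4 libraries as bars. For Sfrp1, Sfrp2, Sfrp4 and Dkk3 the 4 LA libraries of day 6 lie above the 4 libraries of both other groups of that day.

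LA at day 6 was the one comparison with vehicle in which antagonists were called. Sfrp1, Sfrp2, Sfrp4 and Dkk2 rose, so that 4 of 6 tested members were called higher and 0 lower, against 7.83% higher and 9.38% lower among all 12994 genes tested. Higher calls made up 45.5% of all calls, and 59.1% when library totals alone set the scale. The median log2 fold change (log2FC) of the tested members was 0.88, against -0.0096 over all genes tested. Both the count and the median are descriptions, since the genes were chosen with earlier results of these data known. Each adjusted p below is from edgeR's quasi-likelihood test, adjusted over all genes.

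Sfrp1, which binds Wnt ligands through a cysteine-rich domain like that of Frizzled receptors, had 9.88, 12.7, 10.1 and 15.5 CPM in the day 6 LA libraries, against 3.52, 2.69, 4.69 and 2.80 CPM with vehicle. The lowest LA library was above the highest vehicle library. The mean was 12.0 ± 2.63 CPM with LA and 3.43 ± 0.921 CPM with vehicle (SD, n = 4 each). This was the largest change among the tested members (log2FC 1.78, SE 0.250, 95% interval 1.26 to 2.295, adjusted p = 1.63e-05, edgeR).

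Sfrp2, a frizzled-related protein secreted by mesenchymal cells, had 279, 315, 277 and 286 CPM with LA at day 6, against 157, 157, 189 and 149 CPM with vehicle. The groups did not overlap. It rose 1.77-fold (log2FC 0.82, SE 0.121, adjusted p = 5.45e-05, edgeR), and with 2259 to 4211 counts per LA library it was measured more deeply than the other members. An antisense gene, Gm26771, overlaps Sfrp2 in GENCODE M21, and whether the counting used strand is not given in the sources used here, so reads of this pair cannot be told apart.

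Sfrp4, the third frizzled-related gene measured, had 14.5, 19.1, 13.6 and 14.6 CPM with LA at day 6, against 6.63, 6.58, 10.5 and 8.41 CPM with vehicle. Here too the groups did not overlap, though vehicle replicate 3 came nearest to the LA libraries. The rise was 1.92-fold (log2FC 0.94, SE 0.134, adjusted p = 3.55e-06, edgeR). All 3 frizzled-related genes kept the call and the direction under each of the 33 alternatives run, and 4 tested members had groups that did not overlap, all of them higher, against 10.1% of all genes tested.

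Dkk2, whose protein binds the LRP5 and LRP6 coreceptors, had 2.52, 5.15, 3.68 and 4.73 CPM with LA at day 6, against 1.15, 1.30, 3.08 and 1.56 CPM with vehicle. Vehicle replicate 3 lay above LA replicate 1, so the groups overlapped, and LA was the higher of the 2 in 15 of 16 pairings between the groups. The call (log2FC 1.13, SE 0.292, adjusted p = 0.00641, edgeR) rested on 30 to 54 counts per LA library and 13 to 38 per vehicle library. It held without each single library, with adjusted p of 0.000367 to 0.0364, and the log2FC without vehicle replicate 3 was 1.57.

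Dkk3, the divergent Dickkopf gene, had 11.7, 12.7, 12.0 and 11.9 CPM with LA at day 6, against 9.82, 10.2, 7.36 and 9.75 CPM with vehicle. It was higher in 16 of 16 pairs but was not called (log2FC 0.39, SE 0.140, adjusted p = 0.0561, edgeR). Without both libraries that stood apart its adjusted p was 0.0155 (log2FC 0.39), and over all alternatives the adjusted p ran from 0.0112 to 0.208. Dkk3 was called in 10 of 33 alternatives, 5 of which left out a single library (day 2 vehicle replicate 1 or 3, day 2 LA replicate 3 or 4, or day 6 vehicle replicate 2).

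Wif1, which binds Wnt ligands through its WIF domain, had 6 to 17 counts per library with LA and 4 to 13 with vehicle at day 6. Levels were 0.597, 1.62, 0.736 and 1.08 CPM with LA, against 1.06, 0.897, 0.486 and 0.415 CPM with vehicle. The groups overlapped, and a difference was not detectable at this depth (log2FC 0.45, SE 0.385, 95% interval -0.34 to 1.23, adjusted p = 0.493, edgeR).

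Cell type markers were also read in the same day 6 LA libraries, where 7.83% of all genes tested were called higher and 9.38% lower. Of 9 tested fibroblast markers, 5 rose with LA at day 6 and 0 fell, and the 10 markers of that list in the table summed to 12490 to 15030 CPM with LA, against 10410 to 12060 CPM with vehicle. Of 8 myotube markers, 7 fell and 0 rose, with sums of 16390 to 19610 CPM with LA, against 22430 to 27480 CPM with vehicle. All 3 tested adipocyte markers (Pparg, Cebpa and Lpl) rose, with sums of 58.5 to 76.9 CPM with LA, against 25.2 to 30.8 CPM with vehicle, while the defining genes Adipoq, Cfd, Fabp4, Plin1 and Lep were not analysed here. Of 6 myoblast and reserve cell markers 2 rose (Pax7 and Myf5) and 3 fell (Myod1, Des and Notch3). Their sums were 2001 to 2203 CPM with LA, against 2734 to 2978 CPM with vehicle. Of 3 tested bone and cartilage markers 1 rose, with sums of 139.7 to 159 CPM with LA, against 111 to 133 CPM with vehicle. None of 3 tested smooth muscle markers was called, and 0 endothelial markers were tested, with sums of at most 1.35 CPM in either group. No marker in the table was at 0 throughout a group. Single genes weigh heavily in these sums, which therefore do not measure a list as a whole. Means with LA and vehicle were 9433 and 6961 CPM for Col3a1 (fibroblast) and 1855 and 2556 CPM for Des (myoblast and reserve). They were 37.8 and 6.06 CPM for Lpl, and 38.8 and 10.5 CPM for Omd (bone and cartilage). Ttn, the myotube marker not called, had 9023 and 12360 CPM. In these bulk libraries fewer cells of a type and less RNA per cell cannot be told apart. The part of these shifts in the antagonists' changes was not tested.

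ANGPTL4 at day 6 gave no call among the members. In edgeR 0 of 6 were called, 0 had an unadjusted p under 0.05, and limma-voom also called 0. DESeq2 gave an adjusted p for Sfrp2 alone and did not call it, so it is no check of the other members. Among all genes tested edgeR called 0.0231%. Sfrp1 had 3.57, 2.22, 1.62 and 3.60 CPM with ANGPTL4, against 3.52, 2.69, 4.69 and 2.80 CPM with vehicle. These groups overlapped, with means of 2.75 ± 0.993 CPM with ANGPTL4 and 3.43 ± 0.921 CPM with vehicle (SD, n = 4 each). The 95% interval of the log2FC was -1.08 to 0.39 for Sfrp1 (adjusted p = 0.754, edgeR), and those of the better measured genes were narrower.

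Sfrp2 had 157, 164, 175 and 170 CPM with ANGPTL4 at day 6, against 157, 157, 189 and 149 CPM with vehicle, and its log2FC of 0.028 had an interval of -0.23 to 0.29. Sfrp4 had 7.14, 9.67, 9.03 and 7.20 CPM with ANGPTL4, and its interval was -0.28 to 0.36. For Dkk3 the values were 7.65, 8.76, 9.44 and 8.89 CPM with ANGPTL4 (interval -0.40 to 0.24). Dkk2, at 6 to 21 counts per ANGPTL4 library, had the wide interval of -0.74 to 0.75, and that of Wif1 was -1.13 to 0.76. Without ANGPTL4 replicate 1, which stood apart, the log2FC was 0.059 for Sfrp2, 0.092 for Sfrp4, 0.096 for Dkk2, -0.028 for Dkk3 and -0.022 for Wif1, and none was called.

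**Figure D2:**
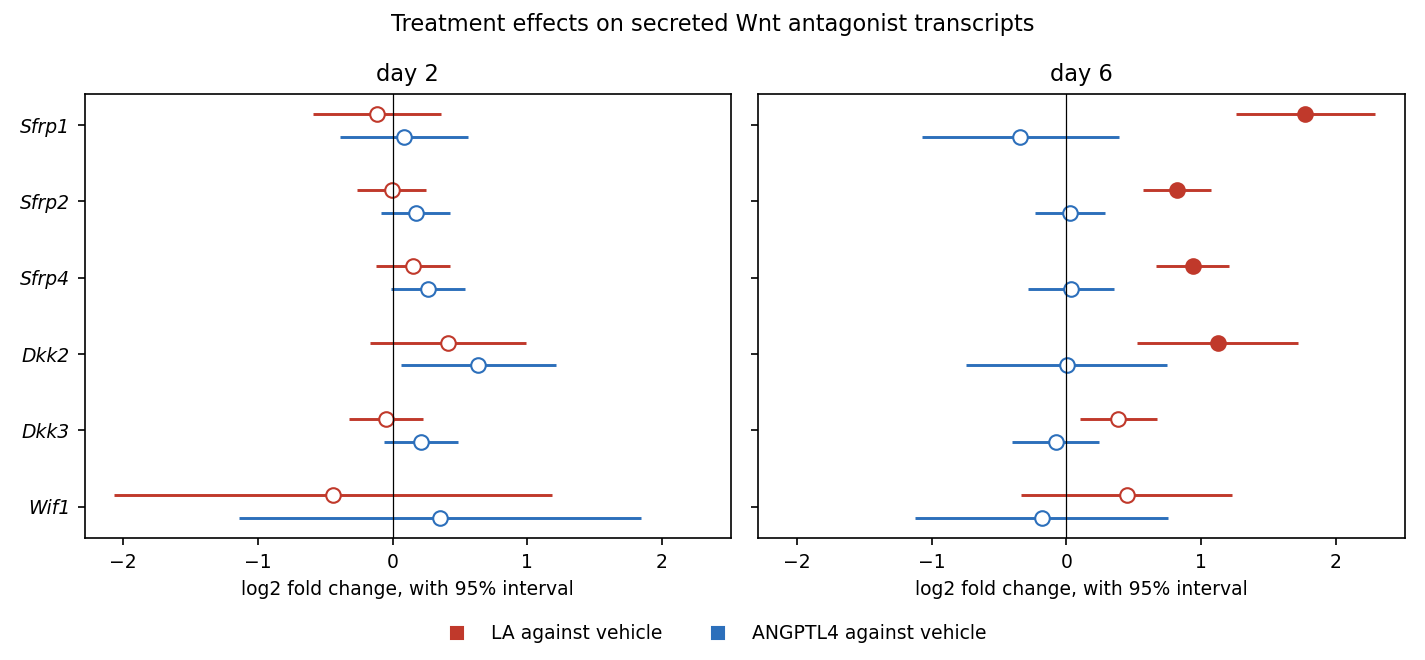
Log2 fold change of each tested antagonist (horizontal axis) with its approximate 95% interval, for LA over vehicle (red) and ANGPTL4 over vehicle (blue) at day 2 (left) and day 6 (right). Filled points were called at an adjusted p under 0.05, and the 4 filled points are Sfrp1, Sfrp2, Sfrp4 and Dkk2 with LA at day 6.

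LA and ANGPTL4 were then set against each other directly, since their comparisons with vehicle share the vehicle libraries. At day 6, 5 of 6 tested members were higher with LA than with ANGPTL4 and 0 were lower, against 6.6% higher and 7.32% lower among all genes. Sfrp1 differed most (log2FC 2.12, SE 0.289, adjusted p = 1.59e-05, edgeR), with means of 12.0 ± 2.63 CPM with LA and 2.75 ± 0.993 CPM with ANGPTL4. Sfrp4 (log2FC 0.90, SE 0.144, adjusted p = 2.90e-05) and Sfrp2 (log2FC 0.80, SE 0.123, adjusted p = 0.000126) were also higher with LA, and for these 3 genes and Dkk3 the LA and ANGPTL4 libraries did not overlap, against 8.83% of all genes wholly higher with LA.

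The calls of the Dickkopf genes between the treatments were less steady. Dkk3 was called (log2FC 0.46, SE 0.152, adjusted p = 0.0370, edgeR), but lost the call when any of 7 libraries was left out, with an adjusted p of up to 0.0886 without ANGPTL4 replicate 1. Those libraries were LA replicates 1, 2, 3 and 4 and ANGPTL4 replicates 1, 2 and 4 of day 6. With limma-voom its adjusted p was 0.0692. Dkk2 (log2FC 1.12, SE 0.320, adjusted p = 0.0161, edgeR) lost its call without LA replicate 2 (0.0660) or 4 (0.0503) or ANGPTL4 replicate 2 (0.0812). Wif1 did not pass (log2FC 0.63, adjusted p = 0.398).

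No antagonist was called against vehicle at day 2. With LA at day 2, 0 of 6 members were called by edgeR, DESeq2 or limma-voom, and 0 had an unadjusted p under 0.05 in edgeR, although 15.1% of all genes were called. DESeq2 gave no adjusted p for Dkk2 and Wif1 here. Sfrp1 had 5.15, 5.74, 7.50 and 3.68 CPM with LA at day 2, against 6.81, 4.28, 5.24 and 8.74 CPM with vehicle. The LA and vehicle ranges overlapped for most of their length (log2FC -0.12, 95% interval -0.59 to 0.36, adjusted p = 0.784). Sfrp2 had 131, 103, 131 and 116 CPM with LA, against 103, 116, 105 and 161 CPM with vehicle (log2FC -0.0077, interval -0.26 to 0.25). Sfrp4 ran from 7.78 to 8.95 CPM with LA, against 6.72 to 8.25 CPM with vehicle (log2FC 0.15, interval -0.13 to 0.43). The ranges of all 6 genes overlapped. Without LA replicate 3, which stood apart, the log2FC was -0.32 for Sfrp1 (adjusted p = 0.462), -0.064 for Sfrp2 and 0.087 for Sfrp4.

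The Dickkopf genes at day 2 were likewise uncalled with LA. Dkk2 had 2.09, 2.21, 3.26 and 2.25 CPM with LA, against 2.56, 1.56, 1.31 and 2.06 CPM with vehicle (log2FC 0.41, adjusted p = 0.350). The highest of these values was LA replicate 3, a library that stood apart, and without it the log2FC was 0.20 (adjusted p = 0.762). Dkk3 had 7.87, 8.18, 11.6 and 5.83 CPM with LA, against 10.3, 8.70, 6.85 and 9.98 CPM with vehicle (log2FC -0.050, adjusted p = 0.848). Replicate 3 was again the highest LA library, and without it the log2FC was -0.27 (adjusted p = 0.192). Wif1 had 0 to 4 counts per library in every group of day 2, which is too few for a comparison.

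With ANGPTL4 at day 2, edgeR, DESeq2 and limma-voom called 0 of 6 members, and 1 (Dkk2) had an unadjusted p under 0.05 in edgeR, against 9.82% of genes called. Dkk2 had 3.30, 2.77, 2.43 and 3.18 CPM with ANGPTL4, against 2.56, 1.56, 1.31 and 2.06 CPM with vehicle. It was higher in 15 of 16 pairs (log2FC 0.64, SE 0.281, adjusted p = 0.146, edgeR). Sfrp2 was called when day 2 vehicle replicate 4, its highest vehicle library at 161 CPM, was left out (log2FC 0.34 and adjusted p = 0.0423, against 0.17 and 0.396 with it).

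Between LA and ANGPTL4 at day 2, 0 of 6 members were called by edgeR, DESeq2 or limma-voom, and 1 (Dkk3) had an unadjusted p under 0.05, against 0.0924% of genes called. DESeq2 gave no adjusted p for Wif1 here. Dkk3 had 7.87, 8.18, 11.6 and 5.83 CPM with LA, against 10.6, 9.94, 10.8 and 10.2 CPM with ANGPTL4. LA replicate 3 alone lay above the ANGPTL4 libraries. With it the log2FC was -0.26 (adjusted p = 0.392), and without it -0.47 (adjusted p = 0.0322, edgeR). Without both libraries that stood apart it was -0.46 (adjusted p = 0.0316).

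Whether the LA effect differed between the days was tested directly as the effect at day 6 minus that at day 2. It was larger at day 6 for 3 of 6 members and smaller for 0, against 8.68% and 11% of all genes. The difference was 1.89 on the log2 scale for Sfrp1 (SE 0.344, adjusted p = 0.000609, edgeR), 0.83 for Sfrp2 (SE 0.172, adjusted p = 0.00244) and 0.79 for Sfrp4 (SE 0.192, adjusted p = 0.00428). These 3 calls held under all 33 alternatives. For Dkk2 the difference was 0.72 (SE 0.413, adjusted p = 0.228), and without day 6 vehicle replicate 3 it was 1.16 (adjusted p = 0.0417). For Dkk3 it was 0.44 (adjusted p = 0.114), and 0.65 (adjusted p = 0.00926) without both libraries that stood apart. Leaving out day 2 LA replicate 3 alone gave 0.67 for Dkk3 (adjusted p = 0.00661), and leaving out day 2 vehicle replicate 3 gave 0.55 (adjusted p = 0.0436). For the ANGPTL4 effect, 0 of 6 members differed between days by edgeR or limma-voom, 0 had an unadjusted p under 0.05 in edgeR, and 0.277% of genes were called. DESeq2 gave an adjusted p for Sfrp2 alone and did not call it.

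Between the days the antagonists moved in different directions. In vehicle, Sfrp2 rose and Sfrp1 fell between the days, against 25.2% of all genes higher and 20.5% lower at day 6. Sfrp1 fell to 3.52, 2.69, 4.69 and 2.80 CPM at day 6, against 6.81, 4.28, 5.24 and 8.74 CPM at day 2 (log2FC -0.84, SE 0.273, adjusted p = 0.0157, edgeR). Only 1 of 16 pairs was higher at day 6, and the call was lost without day 2 vehicle replicate 4 (adjusted p = 0.0772). Sfrp2 rose to 163 ± 17.9 CPM at day 6, against 121 ± 27.2 CPM at day 2 (SD, n = 4 each; log2FC 0.43, SE 0.123, adjusted p = 0.00755, edgeR). Its call was lost with only the compared groups in the fit (adjusted p = 0.0754). Sfrp4 (log2FC 0.12, adjusted p = 0.528), Dkk2 (log2FC -0.058, adjusted p = 0.902) and Dkk3 (log2FC 0.038, adjusted p = 0.852) had no call in vehicle.

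With LA the 3 frizzled-related genes and both Dickkopf genes were higher at day 6 than at day 2, against 23.1% of all genes higher and 20.7% lower. Sfrp2 rose to 289 ± 17.7 CPM at day 6, against 120.1 ± 13.6 CPM at day 2 (SD, n = 4 each; log2FC 1.26, SE 0.122, adjusted p = 6.05e-08, edgeR). Sfrp1, which fell in vehicle, had a log2FC of 1.06 with LA (SE 0.211, adjusted p = 0.000301), and Sfrp4 had 0.91 (SE 0.124, adjusted p = 4.10e-07). Dkk3 rose by less (log2FC 0.47, adjusted p = 0.00415). The rise of Dkk2 (log2FC 0.66, adjusted p = 0.0358) was lost without day 2 LA replicate 1 (0.112), 2 (0.0845) or 4 (0.0589), or day 6 LA replicate 2 (0.150) or 4 (0.111).

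With ANGPTL4 Sfrp1 fell, against 22.4% of all genes higher and 19.8% lower at day 6. It had 3.57, 2.22, 1.62 and 3.60 CPM at day 6, against 5.29, 6.22, 6.87 and 8.35 CPM at day 2, so the days did not overlap (log2FC -1.26, SE 0.303, adjusted p = 0.00168, edgeR). Sfrp2 was higher in 16 of 16 pairs and was not called by edgeR (log2FC 0.29, adjusted p = 0.0690), but limma-voom called it (adjusted p = 0.0277). It was also called with only the compared groups (adjusted p = 0.00198), without day 2 vehicle replicate 4 (0.0117) and without day 2 ANGPTL4 replicate 4 (0.0439). Dkk3 was lower in 16 of 16 pairs without a call (log2FC -0.25, adjusted p = 0.174). Neither Sfrp4 (log2FC -0.11, adjusted p = 0.592) nor Dkk2 (log2FC -0.69, adjusted p = 0.0826) passed in edgeR. Dkk2 was called with only the compared groups (adjusted p = 0.0330) and without day 6 ANGPTL4 replicate 3 (log2FC -0.99, adjusted p = 0.0294). The fall of Sfrp1 in vehicle and with ANGPTL4, beside its rise with LA, is plain in the plot of changes between days.

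Wif1 was higher at day 6 in each arm, but it passed the low-count filter only through 4 libraries of day 6 at or above 0.851 CPM (2 with LA and 2 with vehicle). Its difference between days was therefore in part set by the filter. Counts per library were 6 to 17 at day 6 and 0 to 4 at day 2 with LA, 2 to 7 and 1 to 4 with ANGPTL4, and 4 to 13 and 0 to 3 with vehicle. The log2FC was 3.34 with LA, 1.91 with ANGPTL4 and 2.45 in vehicle. Each was called by edgeR, but these calls cannot be taken as support for a change, since day 6 libraries alone let the gene through. A fit with no filter is no check of this, because the authors had already filtered the deposited values in a way not given. The call with ANGPTL4 rested on 2 to 7 counts per library.

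Leaving Wif1 aside, edgeR called 5 of 5 members between the days with LA, 1 with ANGPTL4 and 2 in vehicle. Among all 12994 genes tested it called 5697 with LA, 5480 with ANGPTL4 and 5930 in vehicle. Libraries of the days did not overlap for 4 of these members with LA, all higher at day 6, against 20.9% of all genes. With ANGPTL4 they did not overlap for Sfrp2, which was higher, and for Sfrp1 and Dkk3, which were lower, against 20.3% higher and 18.3% lower of all genes. In vehicle the days overlapped for each of the 5.

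Cell type markers were read between the days as well. Among all genes tested 23.1% were called higher with LA, 22.4% with ANGPTL4 and 25.2% in vehicle, and 20.7%, 19.8% and 20.5% lower. Of 9 fibroblast markers, 8 rose with LA, 6 with ANGPTL4 and 7 in vehicle, and 1 fell in each. Their sums were 12490 to 15030 CPM at day 6 and 8429 to 9442 CPM at day 2 with LA, 10460 to 11350 and 8585 to 9463 CPM with ANGPTL4, and 10410 to 12060 and 8045 to 9479 CPM in vehicle. Col3a1 weighed heavily in these sums, with means of 9433 CPM at day 6 and 5927 CPM at day 2 with LA. Of 6 myoblast and reserve cell markers, 5 fell in each arm. Of 8 myotube markers, 3 rose and 3 fell with LA, and 4 rose and 1 fell both with ANGPTL4 and in vehicle. Their part in the antagonists' changes between days was not tested.

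**Figure D3:**
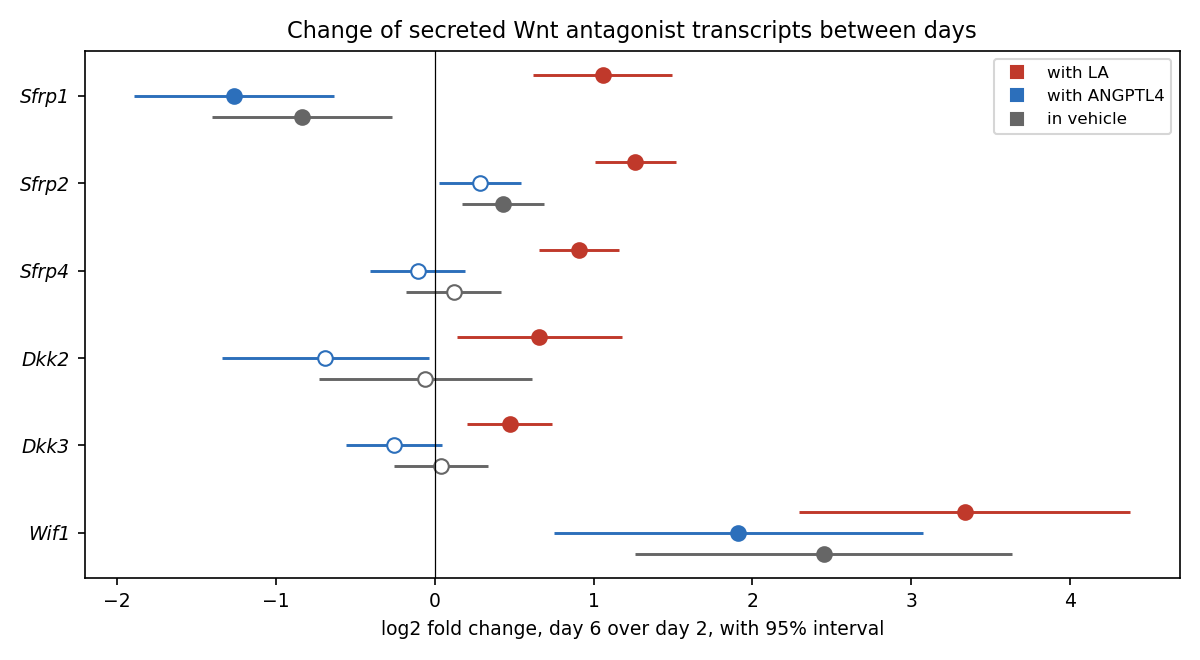
Log2 fold change of day 6 over day 2 (horizontal axis) with its approximate 95% interval for each tested antagonist, with LA (red), with ANGPTL4 (blue) and in vehicle (grey). Filled points were called at an adjusted p under 0.05. Sfrp1 lies at 1.06 with LA, -1.26 with ANGPTL4 and -0.84 in vehicle. Wif1 passed the low-count filter only through day 6 libraries, so its filled points are not support for a change.

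Over the 6 groups, day 6 LA had the highest mean of every tested member. For Sfrp1, Sfrp2, Sfrp4 and Dkk3 its libraries did not overlap those of the next group in order, and for Dkk2 and Wif1 they did. Below it, Sfrp1 was ordered day 2 ANGPTL4 (6.68 ± 1.29 CPM), day 2 vehicle (6.27 ± 1.95), day 2 LA (5.52 ± 1.58), day 6 vehicle (3.43 ± 0.921) and day 6 ANGPTL4 (2.75 ± 0.993), and each of these neighbours overlapped. The order of Sfrp2 was instead day 6 ANGPTL4 (166 ± 8.02 CPM), day 6 vehicle (163 ± 17.9), day 2 ANGPTL4 (137 ± 16.8), day 2 vehicle (121 ± 27.2) and day 2 LA (120.1 ± 13.6), with overlap between neighbours throughout. Means in the other 5 groups were 7.40 to 8.82 CPM for Sfrp4, 8.36 to 10.4 CPM for Dkk3 and 1.77 to 2.92 CPM for Dkk2, and neighbours in these orders overlapped. For Wif1 a gap lay between the lowest day 6 group (0.614 ± 0.192 CPM with ANGPTL4) and the highest day 2 group (0.155 ± 0.0643 CPM with ANGPTL4). That gap was in part set by the low-count filter, which Wif1 passed only through day 6 libraries, and is no support for a change.

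The members did not all share one pattern over the 24 libraries, in which every gene shares each library's depth, day and treatment. Pearson r of log2 CPM was 0.83 between Sfrp2 and Sfrp4, 0.69 between Sfrp1 and Dkk2 and 0.41 between Sfrp1 and Sfrp2, and -0.053 between Sfrp1 and Wif1. Of deviations from group means, r was 0.52 for Sfrp2 with Sfrp4 and 0.0039 for Sfrp1 with Sfrp4. The tested genes most like Sfrp1 over these libraries were Ptx3 (r = 0.91), Gja1 (0.90) and Selenop (0.90). Those most like Sfrp2 were Gas6 (0.95), C1s1 (0.94) and Mmp2 (0.93), and Gas6 (0.90) was also among the 3 most like Sfrp4, with Fam180a (0.90) and Ccn5 (0.89). For Dkk2 they were Ehd3 (0.83), Selenop (0.82) and Mindy4 (0.82), for Dkk3 Mgat4b (0.80), Eola1 (0.72) and Ctsa (0.72), and for Wif1 Ccn2 (0.94), Ndrg1 (0.93) and Klf6 (0.93). These values are descriptions.

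The rest of the Wnt pathway was read from 4 lists with 50 tested genes. With LA at day 6, 15 of these 50 were called, against 17.2% of all genes tested, and DESeq2 called 14. Among ligands and secretion genes 6 of 12 fell and 0 rose, against 9.38% lower and 7.83% higher among all genes tested. DESeq2 called 5 of the 12. Wnt5b was higher in 16 of 16 pairs without a call (log2FC 0.91, adjusted p = 0.0585, edgeR). Wnt11, a ligand of noncanonical signalling, averaged 1.16 ± 0.399 CPM with LA and 2.93 ± 0.336 CPM with vehicle (log2FC -1.35, adjusted p = 0.000122, edgeR). Wnt7b, with means of 0.83 CPM with LA and 1.69 CPM with vehicle, had groups that overlapped (log2FC -0.97, adjusted p = 0.0251, edgeR). With LA, Wnt11 and Wnt7b lay near the 0.851 CPM that the low-count filter asked for, so both falls rest on few counts. Wnt10a, Wnt4, Wnt9a and Porcn were the other 4 that fell.

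Receptors moved both ways with LA at day 6, with 3 of 15 higher and 2 lower, against 7.83% higher and 9.38% lower among all genes tested. The coreceptor Lrp5, the kind of protein that DKK2 binds, averaged 185 ± 11.3 CPM with LA and 127 ± 5.53 CPM with vehicle (log2FC 0.54, adjusted p = 1.78e-08, edgeR). The other coreceptor, Lrp6, was also higher (log2FC 0.24, adjusted p = 0.00478). Of the Frizzled genes, Fzd4 rose (log2FC 0.62, adjusted p = 0.000181), while Fzd2 (log2FC -0.29, adjusted p = 0.000363) and Fzd7 (log2FC -0.28, adjusted p = 0.000258) fell.

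Among 10 other secreted or membrane modulators, 1 rose and 1 fell with LA at day 6, near the 7.83% higher and 9.38% lower among all genes tested. Igfbp4, an IGF-binding protein also reported to bind Frizzled and LRP6, averaged 23.5 ± 1.34 CPM with LA and 13.9 ± 1.78 CPM with vehicle (log2FC 0.75, adjusted p = 9.98e-06, edgeR). Lgr6, a receptor for R-spondins, which enhance Wnt signalling, averaged 3.19 ± 0.915 CPM with LA and 6.93 ± 1.49 CPM with vehicle (log2FC -1.09, adjusted p = 5.27e-05). Of 13 targets and feedback genes 1 rose and 1 fell, which is also near those shares of all genes. Ccn5 rose (log2FC 0.74, adjusted p = 7.19e-09), and Axin2, a feedback inhibitor that is a common readout of beta-catenin activity, fell (log2FC -0.35, adjusted p = 0.0138). The median log2FC was -0.30 for ligands, 0.11 for receptors, 0.048 for other modulators and 0.0038 for targets, against 0.88 for the tested antagonists.

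**Figure D4:**
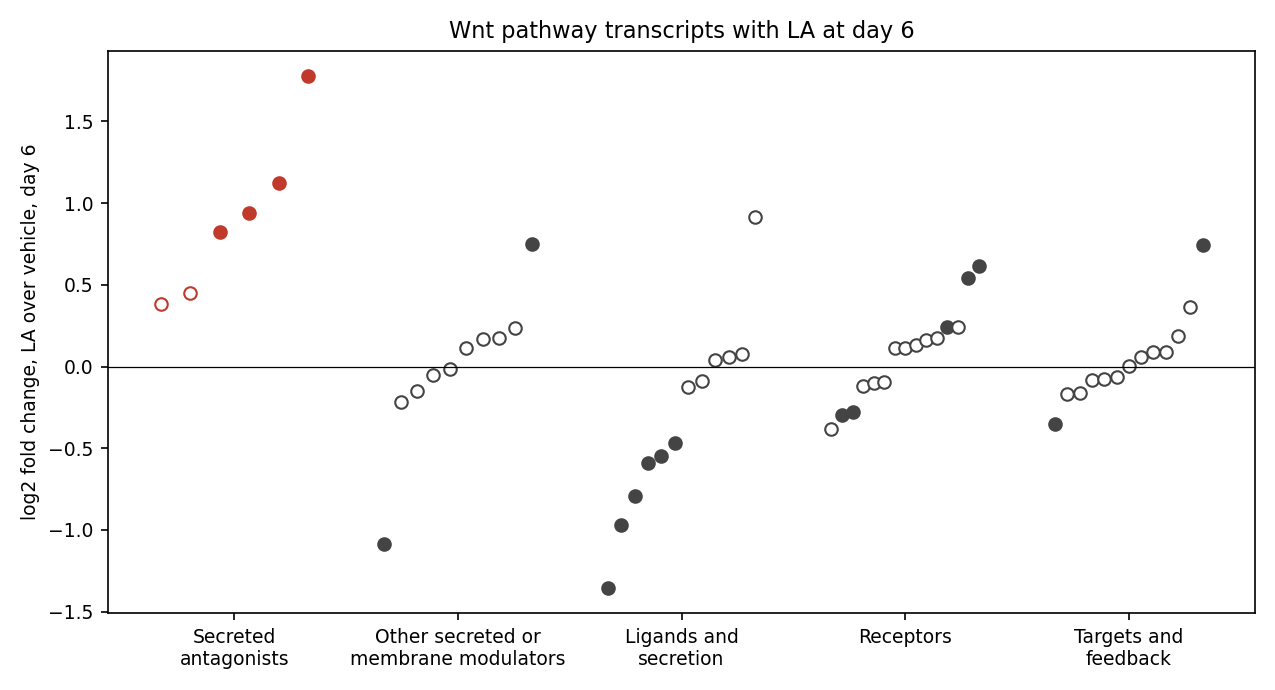
Log2 fold change of LA over vehicle at day 6 (vertical axis) for each tested gene of the secreted antagonists (red) and of 4 other Wnt lists (dark grey), ordered by value within a list. Filled points were called at an adjusted p under 0.05. The tested antagonists lie between 0.39 and 1.78, and the called ligand genes all lie below 0.

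With LA at day 2, 6 of 50 pathway genes were called, which is no more than the 15.1% of all genes. DESeq2 called 4 of the 50 and 0 of the ligand and secretion genes. In edgeR Wnt2b was lower (log2FC -0.60, adjusted p = 0.0185) and Porcn, which adds the lipid to Wnt ligands, higher (log2FC 0.18, adjusted p = 0.0372, edgeR). The others were Ccn5 (log2FC 0.40, adjusted p = 0.00136), Lrp6 (log2FC -0.22, adjusted p = 0.0139), Fzd1 (log2FC -0.16, adjusted p = 0.0315) and Lef1. With ANGPTL4 at day 2, 7 of 50 were called, against 9.82% of all genes, and DESeq2 called 6. In edgeR Igfbp4 was higher (log2FC 0.37, adjusted p = 0.0248) and the ubiquitin ligase gene Znrf3, whose protein removes Frizzled receptors, lower (log2FC -0.24, adjusted p = 0.0305). The others with ANGPTL4 were Fzd2 (log2FC 0.19, adjusted p = 0.0296), Jun (log2FC 0.15, adjusted p = 0.0469), Wnt2b (log2FC -0.58, adjusted p = 0.0327), Lrp6 (log2FC -0.25, adjusted p = 0.0111) and Lef1. Lef1, a nuclear partner of beta-catenin, fell with both LA (log2FC -0.35, adjusted p = 0.0124) and ANGPTL4 (log2FC -0.33, adjusted p = 0.0239) at day 2, comparisons that share the vehicle libraries. With ANGPTL4 at day 6 edgeR and limma-voom called 0 of 50, DESeq2 called 1, and 8 had an unadjusted p under 0.05 in edgeR.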

How the data were processed

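A QuantSeq 3′ kit was used on total RNA (RNA integrity number over 7), per the labels' protocols. The submitters' processing notes list build mm39 and, without order or settings, DESeq, DESeq2, HTSeq 0.9.1, STAR 2.7.1a and Trimmomatic. The deposited values were raw counts per gene symbol for 14693 genes, filtered by the authors in a way not given in the sources used here.

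The fit used edgeR 4.0.16 in R 4.3.3 with TMM scaling. The filterByExpr step removed 1699 genes and left 12994. The model held 1 mean per group over all 24 libraries, with robust quasi-likelihood and 18 residual degrees of freedom. P-values were adjusted by Benjamini-Hochberg across the full table, and calls are at an adjusted p under 0.05. Standard errors and 95% intervals are approximate, from the fold change and its F statistic. CPM used TMM-scaled totals. The fit was tested on simulated data.

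The members and gene lists were chosen with earlier results of these data known. Every member was named. From each pathway list, each comparison of a treatment with vehicle named at most the 2 largest called changes in each direction, and list members outside that rule were named after their values were seen. Alternatives were DESeq2 size factors, library totals alone, no filter, a filter of 5 CPM in 4 libraries, limma-voom (limma 3.58.1), DESeq2 1.42.0, only the compared groups, a replicate block, and libraries left out. Replicate numbers are not stated to mark a culture or day, so they were not taken to pair the samples. Same-numbered libraries deviated together at r over 0.1 in 8 of 60 pairs. Libraries of unlike number were not compared, so this count cannot show whether pairing exists.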

Additional observations from a re-analysis of the deposited data

Results flagged for a closer look

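The LA effect on 3 members differed between the days by a direct test of the difference, which was 1.89 on the log2 scale for Sfrp1, 0.832 for Sfrp2 and 0.787 for Sfrp4, each larger at day 6. In 36 sets of 4 libraries (6 genes in 6 groups), 2 libraries lay farther from the other 3 of their group than Dixon's critical value of 0.829 allows, where chance flags about 1 set in 20. Dkk2 in day 2 LA replicate 3 had 3.26 CPM, against 2.09 to 2.25 CPM in the other LA libraries. Dkk3 in day 6 vehicle replicate 3 had 7.36 CPM, against 9.75 to 10.2 CPM in the other vehicle libraries.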

How the results depend on the processing

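Fold changes of the 6 tested members in 11 comparisons gave 2121 values over 33 alternatives. Of these, 2046 kept direction and call, 19 lost the call, 23 gained it and 33 changed sign, and 0 of the sign changes reached a call. The number of members called moved by more than 1.5 times in few settings. Between the days, with Wif1 included, it was 1 in vehicle with only the compared groups, against 3, and 1 with ANGPTL4 under the filter of 5 CPM in 4 libraries, against 2. It was 1 for LA against ANGPTL4 at day 2 without both libraries that stood apart, against 0. With single libraries left out it ran from 0 to 1 for ANGPTL4 against vehicle at day 2 (1 without vehicle replicate 4), 0 to 1 for LA against ANGPTL4 at day 2 (1 without LA replicate 3), 3 to 5 for LA against ANGPTL4 at day 6 and 1 to 3 between the days with ANGPTL4 (1 without day 6 vehicle replicate 1). Dkk2 and Wif1 gave no value under the filter of 5 CPM in 4 libraries. DESeq2 gave no adjusted p for some members in some comparisons, and these were counted as not called.

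With the replicate block, LA at day 6 gave 4 members called, as without it, and the block changed 1 of 66 calls, that of Dkk3 for LA against ANGPTL4 at day 6 (adjusted p = 0.0541). Same-numbered libraries deviated with r of -0.309 to 0.303.

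Sign changes concerned uncalled values. For LA at day 2, Sfrp2 was 0.021 with library totals alone and 0.010 with limma-voom. For ANGPTL4 at day 6, Dkk2 was -0.0024 with library totals alone, -0.010 with limma-voom and -0.0017 with the replicate block. With single libraries left out, log2FC for LA at day 2 ran from -0.32 to 0.097 (Sfrp1), -0.090 to 0.16 (Sfrp2) and -0.27 to 0.037 (Dkk3). For ANGPTL4 at day 2 it ran from -0.093 to 0.30 (Sfrp1) and -0.023 to 0.78 (Wif1), and at day 6 from -0.0084 to 0.11 (Sfrp2), -0.054 to 0.21 (Sfrp4) and -0.29 to 0.45 (Dkk2). Between the days in vehicle it ran from -0.051 to 0.19 (Sfrp4), -0.50 to 0.10 (Dkk2) and -0.079 to 0.14 (Dkk3).

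Calls over all genes moved more. For LA at day 2 they were 1961, and 422 with only the compared groups, 590 without both libraries that stood apart, 632 without LA replicate 3 and 1109 without vehicle replicate 4. For ANGPTL4 at day 2 they were 1276, and 685 with only the compared groups, 712 without vehicle replicate 4 and 821 without ANGPTL4 replicate 4. For ANGPTL4 at day 6 they were 3, and 83 with only the compared groups, 87 with DESeq2 and 0 with the replicate block. For LA against ANGPTL4 at day 2 they were 12, and 30 with limma-voom and 35 with DESeq2. They were 159 without LA replicate 3, 363 without LA replicate 4 and 102 without ANGPTL4 replicate 4. For the change of the ANGPTL4 effect between days they were 36, and 381 with DESeq2, 1 with limma-voom, 0 with the replicate block and 161 with library totals alone. The share of higher calls moved with scaling. With library totals alone it was 68.2% for LA at day 2 (54.8% with TMM), 54.2% for ANGPTL4 at day 2 (39.3%), 59.1% for LA at day 6 (45.5%), 62.9% for LA against ANGPTL4 at day 6 (47.4%), 38.3% between the days with ANGPTL4 (53.1%) and 17.4% for the change of the ANGPTL4 effect (30.6%). With DESeq2 size factors it was 27.1% for ANGPTL4 at day 2 and 60.7% for the change of the ANGPTL4 effect. The cause was not tested. Wif1 and Dkk2 had at most 17 and 83 counts in any library.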
